A study of Mus musculus with 48 samples.

Results

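The genes described here are 8 genes of smooth muscle contraction and of mesenchymal cell shape and adhesion, Acta2, Tagln, Cald1, Myl9, Cnn1, Pdgfrb, Vim and Cdh2. They were taken by symbol from a table of 22173 genes counted at 4 gonad stages and from a table of 13682 genes in FPKM (fragments counted per length of exon and per depth of the library), and by Ensembl ID from a single-cell table of 32285 genes. All 8 were present in each table, and all 8 passed the filters on low values in each comparison. All samples are labelled C57BL/6 mouse, and the study asked whether 2 compounds turn female embryonic stem cells (ESCs) into cells like the somatic cells of the E12.5 gonad, called gonadal somatic cell-like cells (GSCLCs). The compounds were vitamin C (Vc) and AM580, an agonist of a retinoic acid receptor, and V580 is their combination. The FPKM table held 2 libraries each of control (Con), Vc, AM580 and V580 cells at 24 h and at 48 h, 3 libraries each of V580 cells at days 4, 6, 8 and 10 (V580_D4 to V580_D10), and 3 libraries of cells separated from E12.5 female gonads (E12.5_GC). The stage table held 2 libraries each of somatic cells labelled E12.5, E13.5 and E16.5 gonad and ovary of 6-week-old mice (P6w). In all, 40 of the 48 samples of the series were used, among them 1 single-cell sample of V580 cells at day 6. The ESCs were grown on mouse embryonic fibroblast feeders (from B6C3F1 mice by the methods), which are described as removed by their faster adherence before induction. E12.5_GC cells were the gonadal cells left after beads had taken away those bearing the germ cell antigen SSEA1. The methods describe the same removal for induced cells used in aggregates, and do not say whether the V580 libraries had it. Nothing in the labels says that the libraries of a group came from separate cultures or animals, so p-values measure the spread between these libraries only.

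Acta2 encodes the actin of smooth muscle, and Tagln, Cald1 and Cnn1 encode proteins that bind actin filaments (transgelin, caldesmon and calponin), while Myl9 encodes a regulatory light chain of myosin. In smooth muscle and in contractile fibroblasts these genes are switched on by serum response factor and its partners of the myocardin family, which bind a short A/T-rich sequence, the CArG box, near the genes they drive, and transforming growth factor beta is a known inducer of the same genes. Pdgfrb encodes a receptor for platelet-derived growth factor that marks pericytes and other mesenchymal cells. Vim encodes the intermediate filament protein of mesenchymal cells, and Cdh2 encodes N-cadherin, the adhesion protein that mesenchymal and many mesodermal cells carry in place of the E-cadherin of epithelia.

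The promoters of Myl9 and Acta2 are shown because they were the only ones of the 5 members found in a RefSeq promoter table (GRCm38.p6) that held a CArG box or a near match to it. The table gave windows of 300 bases, from 250 before the annotated start to 50 after it, which were searched for CC and GG around 6 letters that are each A or T, a pattern that reads the same on both strands. Capitals mark the exact match of Myl9, from 161 to 152 bases before its start, and 3 places where 1 of the 6 middle letters departs from the pattern, 1 in Myl9 from 99 to 90 bases before its start and 2 in Acta2 from 84 to 75 and from 34 to 25 bases before its start.
Myl9, chr2:156775283-156775419, plus strand: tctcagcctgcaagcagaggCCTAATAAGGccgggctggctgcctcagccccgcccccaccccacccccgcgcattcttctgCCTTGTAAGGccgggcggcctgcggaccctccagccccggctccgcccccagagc
Acta2, chr19:34255438-34255467, minus strand: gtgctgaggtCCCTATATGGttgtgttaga
Acta2, chr19:34255388-34255417, minus strand: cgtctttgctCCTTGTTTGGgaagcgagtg
Of all 32851 windows in the table, 1.63% held an exact CArG box, 9.98% held one with at most 1 departure and 0.822% held 2 or more such matches. The windows of Vim, Cnn1 and Cald1 held none, which says only that these letters were not in those windows, and the windows of Tagln, Pdgfrb and Cdh2 were not analysed here. Both pieces of Acta2 lie within the bounds of its gene in the GENCODE annotation of GRCm38, while that of Myl9 ends just before its first GENCODE exon. Members lie on chromosome 19 (Acta2, 34241090 to 34255590, minus strand), chromosome 9 (Tagln, 45929619 to 45936058, minus strand, and Cnn1, 22099216 to 22109630, plus strand), chromosome 6 (Cald1, 34598500 to 34775473, plus strand) and chromosome 2 (Myl9, 156775420 to 156781658, and Vim, 13573927 to 13582826, both on the plus strand).

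The stage libraries held 12694769 to 22259044 counts, and the FPKM libraries corresponded to 16442635 to 28312703 fragments. The labels were checked before use. The 8 gonadal somatic markers (Gata4, Wt1, Nr5a1, Lhx9, Emx2, Foxl2, Amhr2 and Kitl) summed to 635 to 688 FPKM in E12.5_GC, with 8 of 8 at 1 FPKM or more, and to 87.4 to 94.2 FPKM in V580_D6, with 6 of 8 at that level. The Con libraries carry the label of induced GSCLCs but held 725 FPKM (24 h) and 456 FPKM (48 h) of the pluripotency gene Pou5f1 on average. The 2 stage libraries labelled E12.5 female gonad held 97 and 103 counts of the Y-linked gene Ddx3y, whereas the other 6 held 0 to 4, so these libraries went against their label, and comparisons that do not use them are given beside those that do. Ddx3y had no FPKM values, so the sex of E12.5_GC and of the V580 libraries was not checked by this gene. Tagln stood apart among the members in its exons, of which 67.9% of 1988 bases also lie in genes of the opposite strand (Gm48529 over 1241 bases and Pcsk7 over 108), while the other 7 members shared no exon base with another gene. The library kit did not mark strand, so bulk Tagln values are uncertain, and reads that Acta2 may share with the near-identical actin gene Actg2 were not tested.

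In the comparison of V580 cells with E12.5_GC, which asks how near the induced cells came to the gonadal cells, the genes followed different courses. Acta2 and Cnn1 were far above the gonadal cells on each day and rose further at day 10. Vim was below the gonadal cells on each day, whereas Myl9, Pdgfrb and Cdh2 started low and first overlapped the gonadal libraries at day 10, day 8 and day 6, with Cdh2 again 2.11-fold lower at day 10. Each result below comes from limma on log2(FPKM + 1) with Benjamini-Hochberg adjustment over 11512 genes, a gene being called at an adjusted p under 0.05 and at least 2-fold, and fold changes on this scale understate those of genes near 1 FPKM. The 4 comparisons share the E12.5_GC libraries. In bulk RNA, fewer cells of a type and less RNA per cell cannot be told apart.

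**Figure D1:**
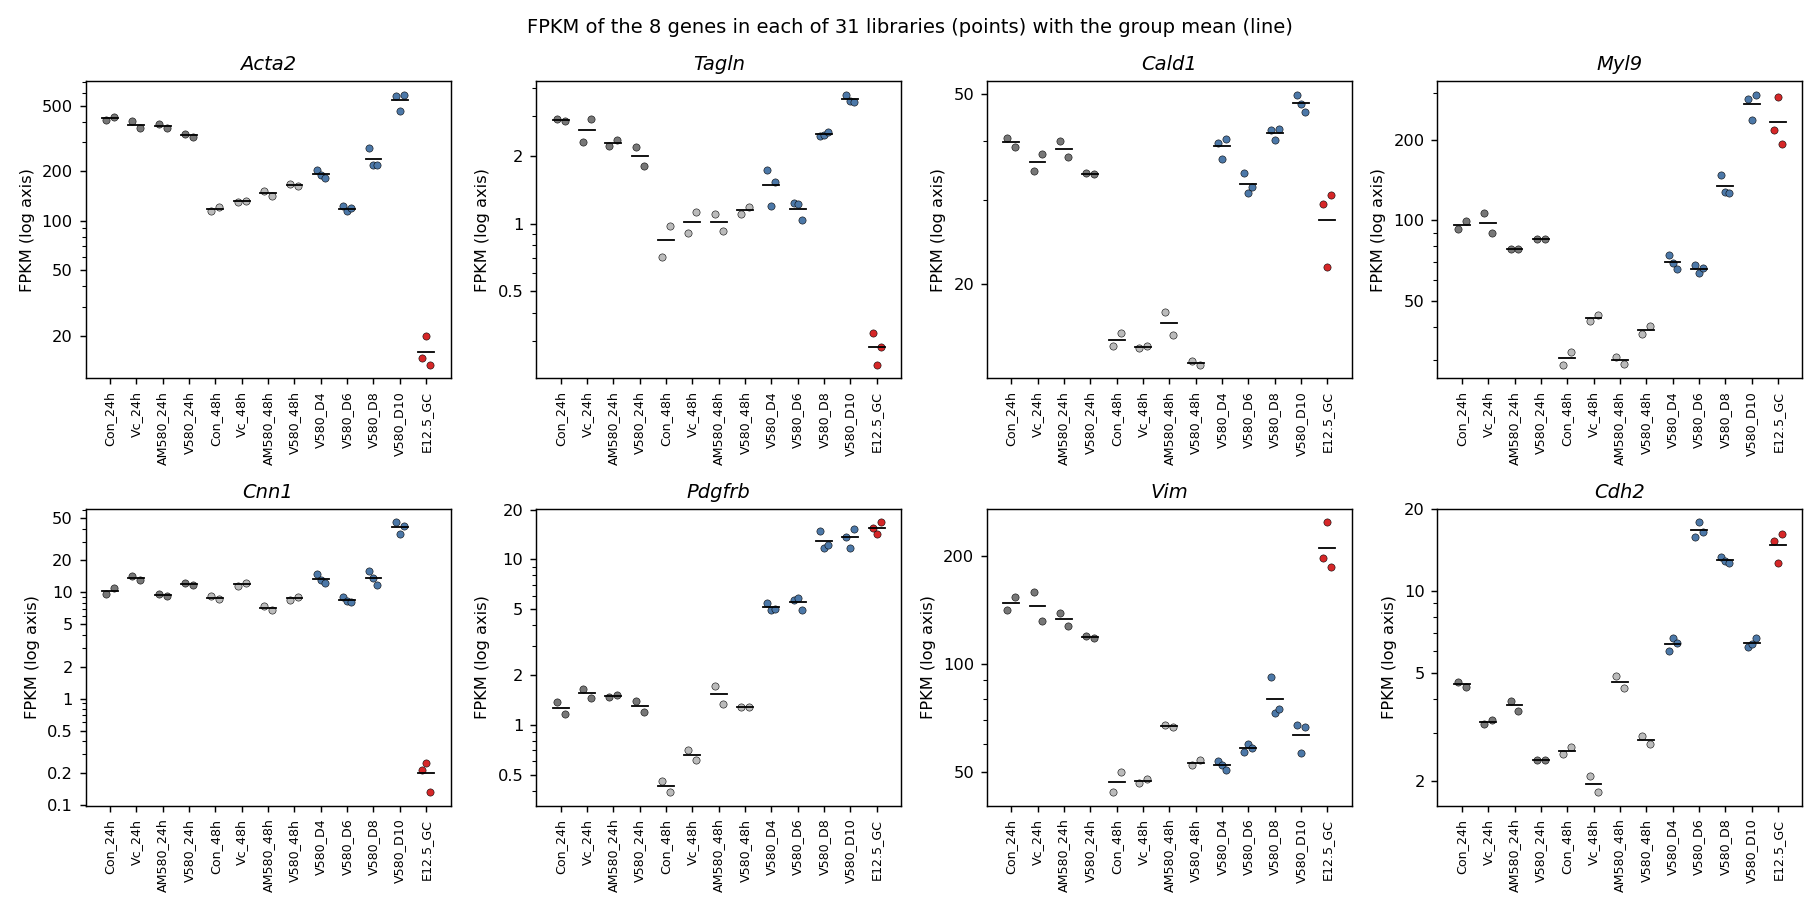
FPKM of the 8 genes (vertical log axis) in each of the 31 libraries (points) by group along the horizontal axis, with a line at the group mean; n = 2 for each group at 24 h and 48 h and n = 3 for the V580 days (blue) and E12.5_GC (red). Among the V580 days Acta2 and Cnn1 lie above E12.5_GC each time, Vim lies below it, and Cdh2 is highest at day 6.

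Acta2, the smooth muscle actin, measured 14.6, 19.9 and 13.3 FPKM in the 3 E12.5_GC libraries. In V580 cells it measured 205, 189 and 183 FPKM at day 4, then 123, 114 and 119 FPKM at day 6, then 279, 218 and 219 FPKM at day 8 and finally 571, 467 and 587 FPKM at day 10. The groups did not overlap with E12.5_GC on any day, and day 6 was the lowest day. Against E12.5_GC, Acta2 was higher by 11.5-fold at day 4 (log2 3.53, SE 0.135, limma adjusted p = 6.45e-12), by 7.15-fold at day 6 (log2 2.84, adjusted p = 1.16e-10), 14.2-fold at day 8 (log2 3.83, adjusted p = 4.44e-12) and 32.3-fold at day 10 (log2 5.01, adjusted p = 2.12e-13).

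Cnn1, the calponin of smooth muscle, was close to absent from E12.5_GC, at 0.21, 0.25 and 0.13 FPKM, or 16, 16 and 7 fragments. The stage libraries labelled E12.5 held more, at 85 and 64 counts, so the folds below are relative to E12.5_GC. V580 cells were not tested against the stage libraries. In V580 cells Cnn1 measured 15.0, 13.1 and 12.2 FPKM at day 4, 9.01, 8.38 and 8.18 at day 6, 15.8, 13.8 and 11.7 at day 8, and 45.9, 35.4 and 42.4 at day 10. At day 10 these values stood for 2794, 2745 and 2418 fragments, so the difference was far above counting error. On the log2(FPKM + 1) scale Cnn1 was higher by 12.04-fold at day 4, 7.96-fold at day 6, 12.3-fold at day 8 and 35.1-fold at day 10 (log2 5.13, SE 0.110, limma adjusted p = 2.43e-14). With edgeR's quasi-likelihood test on the recovered fragments, which adds no constant of 1 FPKM, Cnn1 was 66.0, 42.2, 69.0 and 207 times E12.5_GC on the 4 days in order (SE 0.192 on the log2 scale, adjusted p = 1.57e-13).

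Tagln, the transgelin gene, followed the same order at a much lower FPKM. It measured 0.33, 0.24 and 0.28 FPKM in E12.5_GC, 1.72, 1.20 and 1.53 at day 4, 1.24, 1.22 and 1.03 at day 6, 2.46, 2.47 and 2.56 at day 8, and 3.75, 3.50 and 3.48 at day 10. It was called at day 8 (2.73-fold, limma adjusted p = 2.55e-10) and day 10 (3.57-fold, log2 1.84, SE 0.0737, adjusted p = 1.37e-11). On recovered fragments edgeR called it on each day, at 5.17-fold on the first and 12.7-fold on the last, beside 31.3%, 25.1%, 21.7% and 26.5% of all genes. Tagln stood at 18, 11 and 11 fragments in E12.5_GC and 166, 197 and 144 at day 10. The stage libraries labelled E12.5 held 425 and 384 counts of it, so these rises are relative to E12.5_GC. Cald1, the caldesmon gene, moved less, from 21.8 to 30.7 FPKM in E12.5_GC to 45.8 to 49.96 FPKM at day 10 (1.74-fold, log2 0.80, SE 0.0988, limma adjusted p = 4.32e-06), which passed the adjusted p and not the 2-fold threshold.

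Myl9, the myosin light chain, went the other way early on. It measured 218, 291 and 193 FPKM in E12.5_GC and 74.5, 69.1 and 66.0 FPKM at day 4, 67.9, 63.7 and 66.1 at day 6, 148, 128 and 127 at day 8, and 286, 238 and 296 at day 10. It was lower by 3.27-fold at day 4 (log2 -1.71, SE 0.128, limma adjusted p = 1.46e-08) and 3.46-fold at day 6 (adjusted p = 1.15e-08), was 1.72-fold lower at day 8 and overlapped E12.5_GC at day 10 (log2 0.24, adjusted p = 0.11). At day 6 the cells therefore held 7.15-fold more Acta2 and 3.46-fold less Myl9 than E12.5_GC.

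Pdgfrb, the receptor, measured 15.5, 14.3 and 16.8 FPKM in E12.5_GC. At day 4 it measured 5.42, 4.94 and 5.02 FPKM (2.69-fold lower, log2 -1.43, SE 0.10, limma adjusted p = 6.59e-09) and at day 6 5.65, 5.84 and 4.97 FPKM (2.55-fold lower, adjusted p = 1.76e-08). At day 8 it measured 14.7, 11.7 and 12.2 FPKM and at day 10 13.7, 11.7 and 15.3 FPKM, and both days overlapped the gonadal libraries. Day 8 was still 1.19-fold lower (log2 -0.25, SE 0.10, adjusted p = 0.0393), which passed the adjusted p and not the 2-fold threshold. The difference at day 10 was -0.18 on the log2 scale with an SE of 0.10 (adjusted p = 0.116).

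Vim, the filament protein of mesenchymal cells, was the member that stayed furthest below the gonadal cells. E12.5_GC held 198, 248 and 186 FPKM. The V580 libraries held 50.8 to 53.7 FPKM at day 4, 56.7 to 60.0 at day 6, 72.9 to 92.0 at day 8 and 56.4 to 67.6 at day 10. Vim was lower by 3.95-fold at day 4 (log2 -1.98, SE 0.109, limma adjusted p = 4.04e-10), 3.54-fold at day 6, 2.61-fold at day 8 and 3.27-fold at day 10 (adjusted p = 2.92e-09).

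Cdh2, N-cadherin, was the member nearest to the gonadal cells at day 6. It measured 15.3, 12.6 and 16.2 FPKM in E12.5_GC, 6.02, 6.69 and 6.46 at day 4, 15.7, 17.9 and 16.505 at day 6, 13.4, 12.9 and 12.7 at day 8, and 6.22, 6.38 and 6.69 at day 10. It was called lower at day 4 (2.12-fold, limma adjusted p = 1.18e-08) and at day 10 (2.11-fold, log2 -1.08, SE 0.0798, adjusted p = 1.62e-08). The differences at day 6 (log2 0.18, adjusted p = 0.0629) and day 8 (log2 -0.16, adjusted p = 0.091) missed the threshold. Its partner in the usual exchange of cadherins behaved differently, since Cdh1, E-cadherin, was at 0.776 FPKM in E12.5_GC and at 213, 83.0, 52.0 and 47.9 FPKM on average at days 4, 6, 8 and 10.

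By count, 6 of the 8 members were called at day 4 (2 higher, 4 lower), beside 20.4% of all genes. At day 6, 5 were called (2 higher, 3 lower), beside 15.2% of all genes. At day 8, 4 were called (3 higher, 1 lower), beside 13.0%, and at day 10, 5 were called (3 higher, 2 lower), beside 16.4%. Acta2 and Cnn1 were called higher and Vim lower on each of the 4 days.

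**Figure D2:**
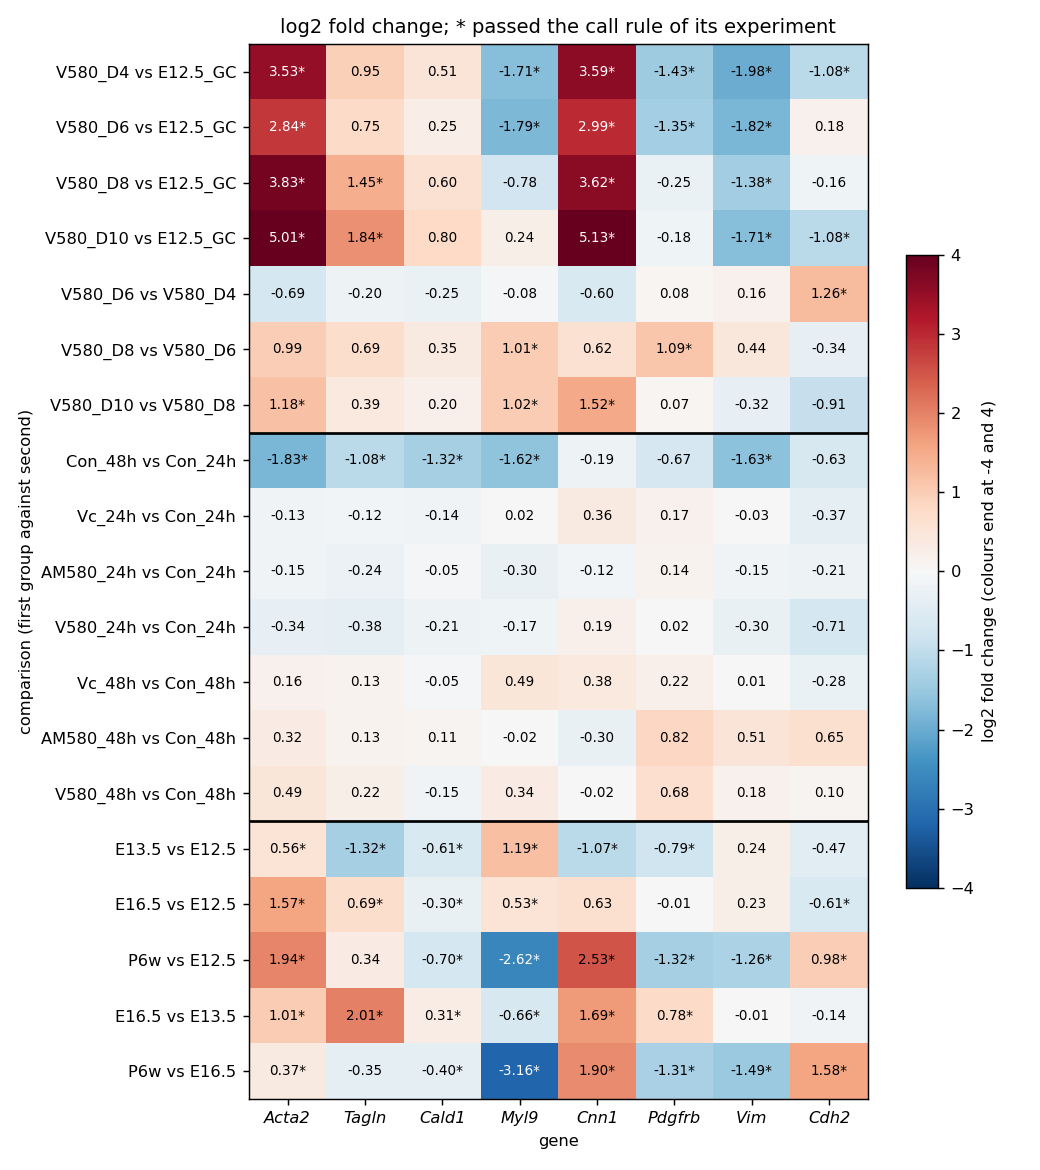
Log2 fold change of each gene (columns) in each comparison (rows, first group against second), as numbers and as colours that end at -4 and 4; a star marks a call by the rule of its experiment (adjusted p under 0.05, and at least 2-fold above the lower line, where values are limma on log2(FPKM + 1); edgeR below it). Acta2 and Cnn1 reach 5.01 and 5.13 at day 10, Con_48h against Con_24h has 5 stars, and no treatment row has one.

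The days were also compared with each other, each day with its own 3 libraries. Between days 4 and 6 only Cdh2 was called among the members (2.40-fold higher, log2 1.26, SE 0.0798, limma adjusted p = 1.17e-08), beside 5.08% of all genes, while Acta2 fell by 0.69 (adjusted p = 0.000806) and Cnn1 by 0.60 (adjusted p = 0.000475) on the log2 scale, under 2-fold. Between days 6 and 8, Pdgfrb (2.14-fold, adjusted p = 1.04e-06) and Myl9 (2.02-fold, adjusted p = 2.26e-05) were called higher, beside 2.55% of all genes. Acta2 rose by 1.99-fold over the same days (adjusted p = 4.6e-05), just under the 2-fold threshold, and all 8 passed the adjusted p, beside 41.1% of all genes, with Cdh2 as the one that fell (log2 -0.34). Between days 8 and 10, Cnn1 (2.86-fold, adjusted p = 2.43e-07), Acta2 (2.27-fold, adjusted p = 1.68e-05) and Myl9 (2.03-fold, adjusted p = 3.85e-05) were called higher, beside 1.29% of all genes. Cdh2 fell by 1.88-fold (log2 -0.91, adjusted p = 1.49e-06), and Pdgfrb differed by 0.07 with an SE of 0.10 (adjusted p = 0.633). Both calls of Myl9 rest on folds close to 2. The call between days 6 and 8 was lost without the second day 6 library or the first day 8 library, and that between days 8 and 10 was lost on leaving out any 1 of 4 libraries.

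Genes of the same machinery were read from lists with none of the members in them, and their counts stand beside the shares of all genes given above. Of 14 other contractile genes, 8 were called higher and 2 lower at day 4 than in E12.5_GC, 4 higher at day 6, 8 higher at day 8 and 12 higher with none lower at day 10, where the median log2 difference was 2.13, against 0.03 over all genes. Actg2, the actin of visceral smooth muscle, rose from 0.369 FPKM in E12.5_GC to 17.0 at day 6, 49.6 at day 8 and 118 at day 10, and Des, the filament protein desmin, from 5.82 FPKM to 29.1 at day 8 and 69.1 at day 10. Between days 8 and 10, 6 of the 14 were called higher, among them Myh11, the smooth muscle myosin heavy chain (6.28 to 19.95 FPKM). Of 14 genes of serum response factor and transforming growth factor beta signalling, 1 was higher and 1 lower at day 4, 2 and 1 at day 6, 4 and 0 at day 8, and 6 and 0 at day 10. The ligand Tgfb3 went from 7.48 FPKM in E12.5_GC to 21.6, 53.0 and 88.3 FPKM at days 6, 8 and 10. Of 9 pericyte and platelet-derived growth factor genes, 1 was higher and 4 lower at day 4, and 2 higher and 0 lower at day 10. Pdgfra, the other receptor of that family, fell from 16.9 FPKM to 2.98 at day 4 and measured 7.87 at day 6 and 17.5 at day 8, so both receptors were low at days 4 and 6. Of 16 genes of mesenchymal transition and adherens junctions, 3 were higher and 4 lower at day 4, and 8 were higher and 0 lower at day 10. Cdh11, another mesenchymal cadherin, was at 16.9 FPKM in E12.5_GC, 1.20 at day 4, 17.0 at day 6 and 46.6 at day 8, and the transition factor Snai2 was at 24.01 FPKM in E12.5_GC, 2.43 at day 4 and 6.09 at day 6.

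Markers of other cell types moved with these differences. The 7 fibroblast markers, led by Col1a1, summed to 205 to 231 FPKM in E12.5_GC, 67.0 to 78.4 at day 4, 177 to 186 at day 6, 522 to 663 at day 8 and 1346 to 1661 at day 10, with 7 of 7 at 1 FPKM or more at days 8 and 10. Of the smooth muscle markers other than the members, 5 were in the table, and they summed to 19.0 to 22.7 FPKM in E12.5_GC and 206 to 254 FPKM at day 10. Skeletal and heart muscle markers were highest at day 4, at 57.1 to 63.8 FPKM (mostly Acta1) and 19.4 to 21.6 FPKM (mostly Actc1). Mesothelial markers summed to 52.0 to 57.2 FPKM in E12.5_GC and 166 to 179 at day 10, and endothelial markers to 48.3 to 76.6 FPKM in E12.5_GC, 1.53 to 1.56 at day 4 and 54.1 to 55.1 at day 10. The endothelial sums differed in their makeup, since E12.5_GC held 5 of 5 markers at 1 FPKM or more, led by Cdh5 (28.2 FPKM), and day 10 held 2 of 5, with Kdr alone at 50.8 FPKM. Erythroid genes reached 1038 to 4435 FPKM in E12.5_GC and less than 1 FPKM in V580 cells. The part of these cells in the results was not tested.

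The treatments at 24 h and 48 h asked what each compound does in the first days. The largest movement of the members was not a treatment effect but the difference between the Con libraries of the 2 times. Acta2 measured 411 and 430 FPKM in Con at 24 h and 114 and 121 FPKM at 48 h (3.55-fold lower, log2 -1.83, SE 0.0528, limma adjusted p = 6.64e-13). Vim (3.10-fold), Myl9 (3.08-fold), Cald1 (2.49-fold) and Tagln (2.12-fold) were also called lower, so that 5 of the 8 members were called, beside 7.72% of 10644 genes tested. Pdgfrb went from 1.36 and 1.16 FPKM to 0.46 and 0.39 FPKM, which was 1.59-fold on the log2(FPKM + 1) scale and 2.99-fold, and called, on recovered fragments, beside 16.9% of all genes there. Cdh2 was 1.54-fold lower (adjusted p = 1.09e-06), and Cnn1 differed by 1.14-fold (adjusted p = 0.0251). The call of Tagln was lost without the first Con library at 48 h. Of 12 other contractile genes tested, 6 were lower and none higher, among them Csrp1 (167 to 38.1 FPKM) and Actg2 (34.4 to 8.52 FPKM). Of 13 genes of serum response factor and transforming growth factor beta signalling, 6 were lower and none higher, among them Tgfb3 (22.0 to 2.90 FPKM). Fibroblast markers summed to 114 to 121 FPKM in Con at 24 h and 29.5 to 31.2 FPKM at 48 h, with Col1a1 going from 73.7 to 15.4 FPKM, and pluripotency markers summed to 964 to 1031 FPKM and 571 to 582 FPKM. Their part in the fall of the members was not tested.

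Within each time, no member was called for any of the 3 treatments against Con or for V580 against AM580, beside 0.404%, 0.695% and 0.0846% of all genes for AM580, V580 and Vc at 24 h, 3.23%, 3.18% and 0.0470% at 48 h, and 0.0658% and 0.263% for V580 against AM580 at 24 h and 48 h. Several members passed the adjusted p with folds under 2. At 24 h with V580, Cdh2 measured 2.39 and 2.39 FPKM, against 4.65 and 4.42 FPKM in Con (log2 -0.71, SE 0.0673, limma adjusted p = 1.86e-06), and Acta2 measured 337 and 325 FPKM, against 411 and 430 FPKM (log2 -0.34, adjusted p = 0.000202). Of the members, 5 passed the adjusted p at 24 h with V580, all lower (Acta2, Tagln, Cald1, Vim and Cdh2), beside 29.0% of all genes. At 48 h with V580, 4 passed, beside 57.1% of all genes, and they were Acta2, at 168 and 164 FPKM against 114 and 121 FPKM in Con (log2 0.49, adjusted p = 2.14e-06), Pdgfrb and Myl9, all higher, and Cald1, lower by 0.15.

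Pdgfrb gave the largest response of a member at 48 h. It measured 1.29 and 1.28 FPKM with V580 and 1.71 and 1.34 FPKM with AM580, against 0.46 and 0.39 FPKM in Con, or 141 and 128, 184 and 139, and 50 and 45 fragments. The log2 differences were 0.68 for V580 (SE 0.0815, limma adjusted p = 6.12e-06) and 0.82 for AM580 (adjusted p = 8.84e-07). On recovered fragments, edgeR called both, at 3.08-fold (adjusted p = 5.39e-07) and 3.67-fold (adjusted p = 5.85e-08), beside 8.67% and 8.56% of all genes. With Vc alone Pdgfrb measured 0.70 and 0.61 FPKM, a log2 difference of 0.22 from Con (adjusted p = 0.102). At 48 h V580 and AM580 differed in Pdgfrb by -0.14 with an SE of 0.0815 (adjusted p = 0.253).

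For Cdh2, Vim and Myl9 the differences of Vc and of AM580 from Con were unlike each other, though Vc was not tested against AM580. AM580 at 48 h was above Con in Cdh2, at 4.86 and 4.38 FPKM against 2.51 and 2.67 FPKM (log2 0.65, limma adjusted p = 1.46e-06), and in Vim, at 67.7 and 66.9 FPKM against 43.9 and 49.98 FPKM (log2 0.51, adjusted p = 4.5e-05). With Vc added, that is with V580, Cdh2 measured 2.94 and 2.74 FPKM, which was lower than with AM580 alone (log2 -0.55, SE 0.0673, adjusted p = 5.17e-05), and Vim was lower by 0.34 (adjusted p = 0.00626). Vc alone at 48 h was above Con in Myl9, at 42.1 and 44.4 FPKM against 28.8 and 32.3 FPKM (log2 0.49, adjusted p = 0.0005), and in Cnn1 (log2 0.38, adjusted p = 0.00279), and below it in Cdh2 (log2 -0.28, adjusted p = 0.0138). V580 exceeded AM580 at 48 h in Myl9 by 0.36 (adjusted p = 0.00248), in Cnn1 by 0.28 (adjusted p = 0.0115) and in Acta2 by 0.17 (adjusted p = 0.0327). In all, 6 of the 8 members passed the adjusted p between V580 and AM580 at 48 h and 3 at 24 h, beside 19.2% and 14.8% of all genes. The treatment effects of 24 h and 48 h were also compared by an interaction term. No member was called, beside 1.90% (AM580), 1.83% (V580) and 0.0376% (Vc) of all genes, while 6, 6 and 1 members passed the adjusted p, beside 35.0%, 33.9% and 2.90%. On recovered fragments the interactions of Pdgfrb and Cdh2 were called for AM580 and for V580, beside 4.99% and 5.29% of all genes. The comparisons with Con share the Con libraries, and those with V580 share the V580 libraries.

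**Figure D3:**
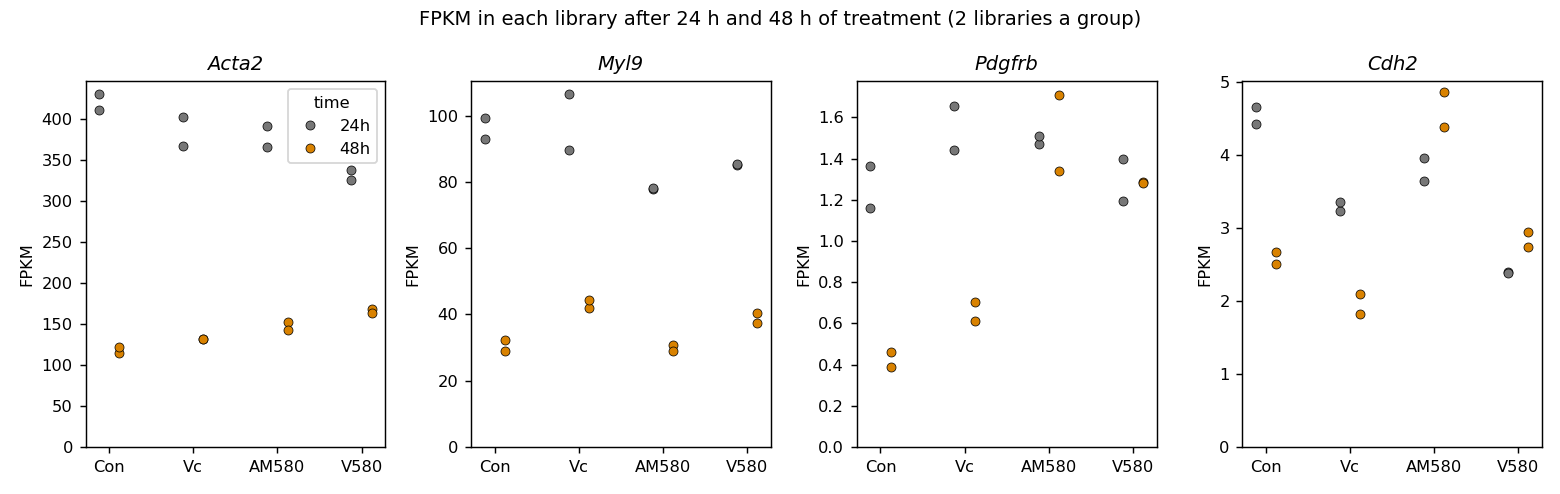
FPKM of Acta2, Myl9, Pdgfrb and Cdh2 in each Con, Vc, AM580 and V580 library at 24 h and 48 h (points, n = 2 per group; vertical linear axis from 0; 24 h in grey and 48 h in orange). Each of the 4 genes is lower in Con at 48 h than at 24 h, and Pdgfrb in AM580 and V580 at 48 h lies above Con at 48 h.

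Over all 13 groups of the FPKM table, the order of the levels differed between members. Acta2 was highest at day 10 (541 FPKM), followed by the 4 groups at 24 h (331 to 420 FPKM), day 8 (239), day 4 (192), the treated groups at 48 h (131 to 166), day 6 and Con at 48 h (119 and 118, overlapping) and E12.5_GC (16.0). Tagln and Cnn1 also had day 10 at the top and E12.5_GC at the bottom. Pdgfrb had E12.5_GC, day 10 and day 8 at the top (15.5, 13.6 and 12.9 FPKM, overlapping neighbours), then days 6 and 4 (5.49 and 5.12), with all groups of the first 48 h under 2 FPKM. Vim had E12.5_GC at the top (211 FPKM), then the 4 groups at 24 h (119 to 147 FPKM). Cdh2 had day 6, E12.5_GC and day 8 at the top (16.7, 14.7 and 13.0 FPKM, overlapping neighbours). Myl9 had day 10 and E12.5_GC at the top (274 and 234 FPKM, overlapping), and Cald1 had day 10 (47.9 FPKM) at the top and V580 at 48 h (13.7 FPKM) at the bottom.

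Across the 31 FPKM libraries, which share groups, the members correlated unevenly (Pearson's r of log2(FPKM + 1), a description). The r was 0.92 for Acta2 with Tagln, 0.91 for Acta2 with Cnn1 and 0.82 for Tagln with Cnn1. It was 0.84 for Pdgfrb with Cdh2 and 0.81 for Myl9 with Pdgfrb, but -0.02 for Acta2 with Myl9, -0.43 for Acta2 with Cdh2 and -0.54 for Cnn1 with Vim. Of 7085 genes with a mean of at least 5 FPKM, those most like Acta2 were Tpm2 (r = 0.96), a tropomyosin, Cystm1 (0.93) and Tbrg1 (0.92). Those most like Tagln were Fbln2 (0.95) and Fn1 (0.94), both of the extracellular matrix, and Ifitm3 (0.94), and those most like Cald1 were Tpm4 (0.95), another tropomyosin, F2r (0.94) and Sparc (0.93). Myl9 was most like Qsox1 (0.98), Tgfb1i1 (0.98) and Ifi27 (0.95), and Cnn1 was most like Serinc2 (0.95), Copb2 (0.93) and Cystm1 (0.93). Pdgfrb was most like Il6st, Adam10 and P3h3 (0.98 each), Vim like Ngfr (0.96), Ube2l6 (0.94) and S100a10 (0.94), and Cdh2 like 2700081O15Rik (0.95), Rgs12 (0.94) and Atf3 (0.94).

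Single cells of V580 day 6 showed where among the cells the members were read. There was 1 library, so nothing here was tested, and the intervals are exact and cover counting error only. Of 15412 barcodes, the 15315 that held 200 genes or more and no more than 40% mitochondrial UMIs were used. They had a median of 9281 UMIs (unique molecular identifiers, each counting 1 captured molecule) and 3074 genes. Doublets were not removed. Cells with 1 or more UMIs made up 72.4% for Cald1, 66.7% for Tagln, 57.5% for Vim, 54.0% for Myl9, 52.9% for Acta2, 27.6% for Cdh2, 17.9% for Cnn1 and 5.13% for Pdgfrb. Per 10000 UMIs the levels were 6.47 for Tagln, 5.86 for Cald1, 4.58 for Acta2, 2.41 for Vim, 2.06 for Myl9, 0.564 for Cnn1, 0.484 for Cdh2 and 0.0574 for Pdgfrb. Tagln thus gave more UMIs than Acta2 in the single-cell library, where it had measured 1.16 FPKM beside 119 FPKM of Acta2 in the bulk libraries of day 6. The part of the exons shared with the opposite strand in this contrast was not tested.

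The cells were grouped into 12 clusters without the members and without the 14 contractile genes, so the members did not define them. Cluster 3 held 1394 cells (9.10% of the cells, with 12.8% of the UMIs) and was led by Col1a1, Emilin1, Col6a2, Col1a2 and Vcan. It was interstitial-like, with 5 of 6 interstitial markers at 0.5 or more per 10000. The smooth muscle markers Myh11, Actg2, Lmod1 and Des also reached that level there, and Rgs5 and Notch3 did not. Des reached it in clusters 0, 1, 2, 4 and 5 as well, and Actg2 in cluster 0. Among the 12 clusters, cluster 3 had the highest level of Acta2, Tagln, Cald1, Myl9, Cnn1 and Pdgfrb. Acta2 was at 17.8 UMIs per 10000 there (95% interval 17.6 to 17.9), 6.69 times its level in the other cells, and 49.4% of all Acta2 UMIs came from these cells. Pdgfrb was at 0.208 (0.188 to 0.228), 5.86 times the other cells, with 46.1% of its UMIs, and its interval overlapped that of cluster 4 (0.134 to 0.226). The ratios were lower for Cnn1 (3.92), Tagln (2.97), Vim (2.90), Cald1 (2.65) and Myl9 (2.51), and Cdh2 was at 0.448, 0.914 times the other cells. Thus most of the UMIs of Tagln, Cald1 and Myl9 lay outside cluster 3, which held 30.3%, 27.9% and 26.8% of them.

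Cdh2 and Vim had other high clusters. Cluster 10, 64 neuron-like cells with all 4 neuron markers, had the highest level of both Vim, at 6.96 per 10000 (6.33 to 7.64), against 5.63 in cluster 3, and Cdh2, at 1.48 (1.20 to 1.82), while Acta2 was at 1.01 (0.778 to 1.29). Cdh2 was at 1.04 in cluster 4, whose median mitochondrial share was 15.7%, at 0.753 in cluster 1, 3046 cells led by Igfbp5, Upk3b, Itm2a and Smim1 with Wt1, Wnt4 and Emx2 also among the leading genes, and at 0.762 in the proliferating cluster 2. It was at 0.108 in cluster 5, 1052 cells with Epcam, Cdh1 and Cldn3 among the leading genes. In clusters 6, 7, 8 and 9 Acta2 was between 0.748 and 1.60 per 10000. Cluster 0, 3460 cells that stayed unnamed with a median of 1454 UMIs, was second to cluster 3 in Acta2 (7.52) and Tagln (9.37).

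**Figure D4:**
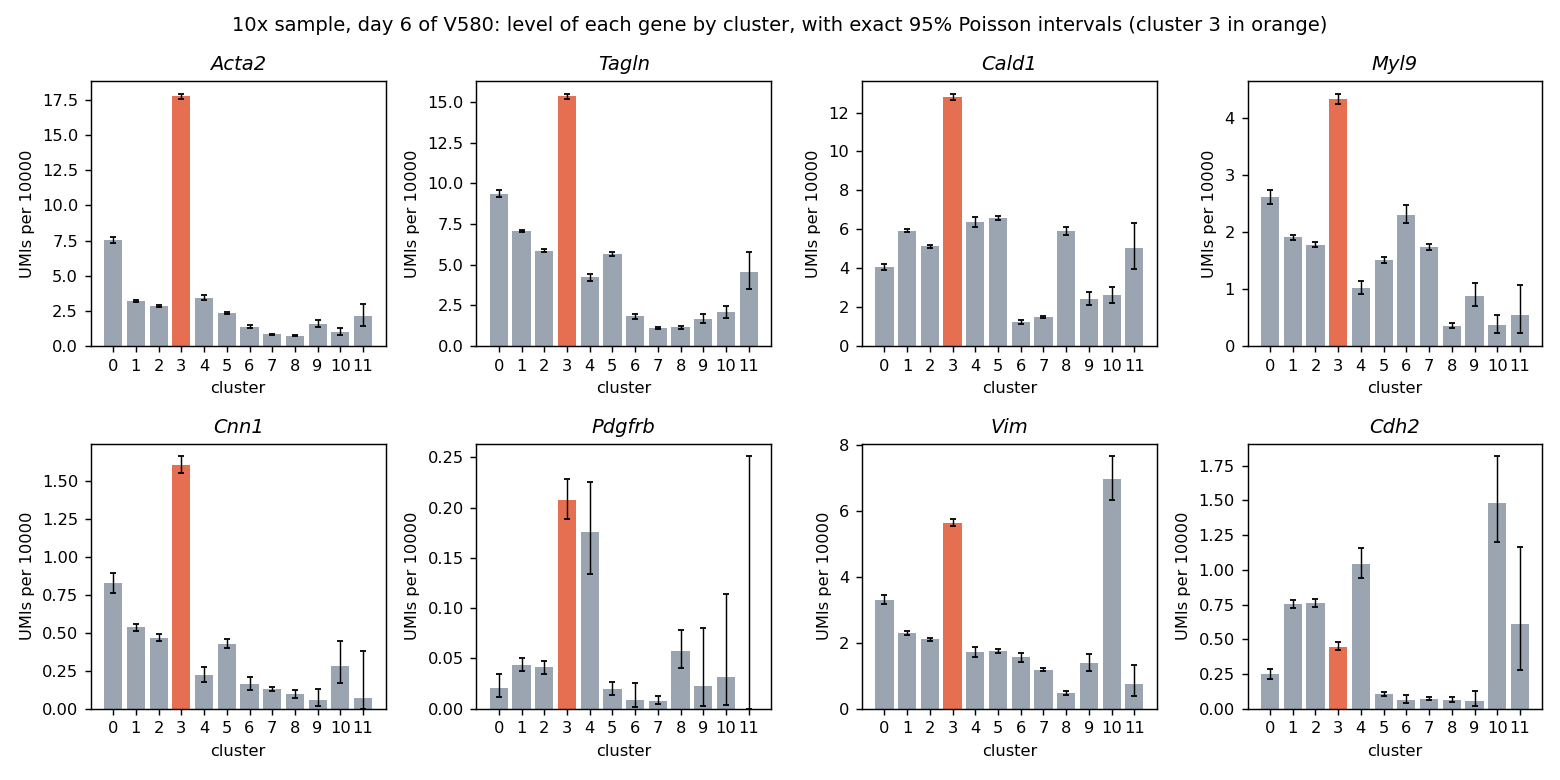
UMIs per 10000 of each gene in the clusters of the single-cell sample of V580 day 6 (bars from 0, with exact Poisson 95% intervals that cover counting error only; cluster 3 in orange). Cluster 3 is highest in Acta2 (17.8), Tagln, Cald1, Myl9, Cnn1 and Pdgfrb, and cluster 10 in Vim (6.96) and Cdh2 (1.48).

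Depth differed between clusters, so each cell with enough UMIs was thinned to 2000 UMIs, which left 11515 cells. Acta2 was then detected in 67.1% of 1386 cells of cluster 3 and 16.7% of 48 cells of the neuron-like cluster 10, whose median depths before thinning were 13681 and 10007.5 UMIs. The share in neurons, which should lack smooth muscle actin, gives the background that free RNA can make. Tagln was detected in 62.8% and 22.9%, Vim in 52.6% and 58.3%, and Cdh2 in 7.36% and 31.3% of the cells of clusters 3 and 10. Without thinning, Acta2 was detected in 91.6% and 32.8% of them. Pdgfrb was detected in 3.32% of the thinned cells of cluster 3 and 0.0956% of those of cluster 5, whose median depth was 15994.5 UMIs. Among thinned cells, Tagln was found in 69.7% of the 3462 cells with an Acta2 UMI and in 34.7% of the 8053 without, Cnn1 in 16.6% and 3.15%, Actg2 in 8.78% and 1.06% and Col1a1 in 30.8% and 10.8%. The epithelial gene Epcam went the other way, at 12.8% and 22.9%. Cdh2 was found in 9.30% of the cells with Acta2 and 9.24% of those without, and cells with Cdh2 held Cdh1 in 2.25% and cells without it in 4.44%. The 827 cells with Cnn1 held Acta2 in 69.3% and Tagln in 83.6%, against 27.0% and 42.2% of the other cells, and the 114 cells with Pdgfrb held Col1a1 in 43.9%, against 16.6%.

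The stage libraries asked how the same genes change as the gonad develops, with levels in CPM (counts scaled to library size after TMM normalization) and tests by edgeR's quasi-likelihood test over 16398 genes at a Benjamini-Hochberg adjusted p under 0.05. Acta2 was higher at each later stage and Myl9 rose and then fell to its lowest level in the adult ovary. With a term for gene length, given below, the E13.5 differences of Acta2 (from E12.5) and Myl9 (from E12.5 and E16.5) were smaller. Acta2 measured 72.8 and 76.8 CPM at E12.5, 104 and 114 CPM at E13.5, 256 and 186 CPM at E16.5 and 269 and 300 at P6w, with no overlap between neighbouring stages. Myl9 measured 955 and 869 CPM at E12.5, 2093 and 2016 CPM at E13.5, 1324 and 1298 CPM at E16.5 and 135 and 157 at P6w. So the 2 genes parted in the adult ovary, where Acta2 was 3.85-fold above E12.5 (log2 1.94, SE 0.146, edgeR adjusted p = 2.81e-08) and Myl9 6.16-fold below it (log2 -2.62, SE 0.125, adjusted p = 1.71e-10). Against E16.5, which does not use the E12.5 libraries, P6w was 1.29-fold higher in Acta2 (adjusted p = 0.0343) and 8.93-fold lower in Myl9 (log2 -3.16, SE 0.128, adjusted p = 2.65e-11). The Acta2 call between P6w and E16.5 was lost without the second E16.5 library or without either P6w library.

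Cnn1 and Cdh2 were highest in the adult ovary. Cnn1 measured 3.97 and 3.19 CPM at E12.5, 1.63 and 1.75 CPM at E13.5, 3.70 and 7.42 CPM at E16.5, and 20.6 and 20.2 CPM at P6w. It was 5.76-fold above E12.5 (edgeR adjusted p = 4.27e-06) and 3.73-fold above E16.5 (adjusted p = 5e-05). Cdh2 measured 19.2 and 13.95 CPM at E12.5, 12.496 and 11.2 CPM at E13.5, 9.66 and 12.05 CPM at E16.5 and 29.8 and 34.7 at P6w. It was 1.97-fold above E12.5 (adjusted p = 0.000688) and 2.99-fold above E16.5 (log2 1.58, SE 0.203, adjusted p = 9.43e-06). P6w libraries also held 31700 to 32464 CPM of 5 adult granulosa cell markers, led by Inha, against 135 to 278 CPM in the other 6 libraries.

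Vim and Pdgfrb were lowest in the adult ovary. Vim measured 776 to 981 CPM in the 6 fetal libraries and 341 and 312 CPM at P6w, which was 2.40-fold below E12.5 (edgeR adjusted p = 4.86e-07) and 2.82-fold below E16.5 (adjusted p = 7.1e-08). Pdgfrb measured 18.7 and 22.5 CPM at E12.5, 11.7 and 11.8 CPM at E13.5, 20.6 and 19.96 CPM at E16.5 and 9.43 and 6.88 at P6w. It was 2.49-fold below E12.5 (adjusted p = 5.82e-05) and 2.47-fold below E16.5 (adjusted p = 5.75e-05). Cald1 measured 538 and 498 CPM at E12.5 and 307 and 321 CPM at P6w (1.63-fold lower, adjusted p = 9.54e-05). Tagln measured 21.6 and 27.2 CPM at P6w and did not pass the test against E12.5 (log2 0.34, SE 0.193, adjusted p = 0.149) or E16.5. In all, 7 of the 8 members were called between P6w and E12.5 (3 higher, 4 lower), beside 52.9% of all genes, and 7 between P6w and E16.5 (3 higher, 4 lower), beside 56.1%. The library names in the labels carry a tag that they do not explain, L5 for E12.5, E13.5 and the first E16.5 library and L1 for P6w and the second, so stage and tag cannot be told apart between P6w and E12.5. Between P6w and the E16.5 library that shares its tag, the same 7 members were called, with Acta2 at 0.61, Myl9 at -3.15 and Cdh2 at 1.42 on the log2 scale.

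Among the fetal stages E13.5 stood apart. Of the members, 6 were called between E13.5 and E12.5, beside 45.9% of all genes, with Myl9 (2.28-fold, SE 0.118 on the log2 scale, edgeR adjusted p = 5.16e-06) and Acta2 (1.48-fold, adjusted p = 0.00483) higher and Tagln (2.50-fold, adjusted p = 0.00011), Cnn1 (2.09-fold), Pdgfrb (1.73-fold) and Cald1 (1.53-fold) lower. Tagln was at 19.8 and 19.1 CPM at E12.5, 7.26 and 8.13 CPM at E13.5, 36.5 and 25.8 CPM at E16.5. Between E16.5 and E13.5, a comparison without the E12.5 libraries, 6 were called, beside 54.1% of all genes, and Tagln (4.04-fold, adjusted p = 1.65e-06), Cnn1 (3.23-fold), Acta2 (2.01-fold, adjusted p = 3.23e-05), Pdgfrb (1.72-fold) and Cald1 (1.24-fold) were higher and Myl9 (1.57-fold, adjusted p = 0.000262) lower. Between E16.5 and E12.5, 5 were called, beside 37.6% of all genes, namely Acta2 (2.97-fold, adjusted p = 9.95e-07), Tagln and Myl9 higher and Cald1 and Cdh2 lower. Leaving out 1 library of the stages compared ended the calls of Acta2 (first E12.5 library), Cnn1 (the same or either E13.5 library) and Pdgfrb (second E12.5 library) between E13.5 and E12.5, those of each gene but Acta2 between E16.5 and E12.5, and that of Cald1 between E16.5 and E13.5 (either E13.5 library). Without the second E16.5 library, tagged L1, the stage stood on 1 library, tagged L5 like E12.5 and E13.5. For the genes called above, the log2 differences from E12.5 were then 1.78 (Acta2), 0.91 (Tagln), 0.54 (Myl9), -0.27 (Cald1) and -0.78 (Cdh2). From E13.5 they were 2.24 (Tagln), 1.12 (Cnn1), 1.22 (Acta2), 0.80 (Pdgfrb), 0.35 (Cald1) and -0.64 (Myl9).

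The fold changes against E13.5 moved with gene length over all genes, with a Spearman correlation of -0.494 between E13.5 and E12.5 and 0.335 between E16.5 and E13.5 over 16169 genes, and within 0.09 of 0 elsewhere. With a length term for each library, the E13.5 against E12.5 difference of Acta2 was 0.12 and no longer called, that of Cald1 was 0.065 in place of -0.61, and that of Myl9 was 0.43. The differences of Tagln (-1.82), Cnn1 (-1.36) and Pdgfrb (-0.61) kept their sign. With the term 5 members were called between E13.5 and E12.5, against 6 without it, so Cdh2 or Vim was newly called. Between E16.5 and E13.5 the length term turned Cald1 to -0.33, called lower (edgeR adjusted p = 0.0226), left Myl9 at -0.05 and not called (adjusted p = 0.717), and gave Cdh2 -0.56, called lower. Erythroid genes were also highest at E13.5, at 27083 to 29543 CPM, against 13389 to 14774 at E12.5, 6553 to 10945 at E16.5 and 193 to 213 at P6w, and fibroblast markers were highest at E16.5, at 2531 to 2858 CPM, against 640 to 769 CPM at the 2 earlier stages. Their part in these results was not tested.

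**Figure D5:**
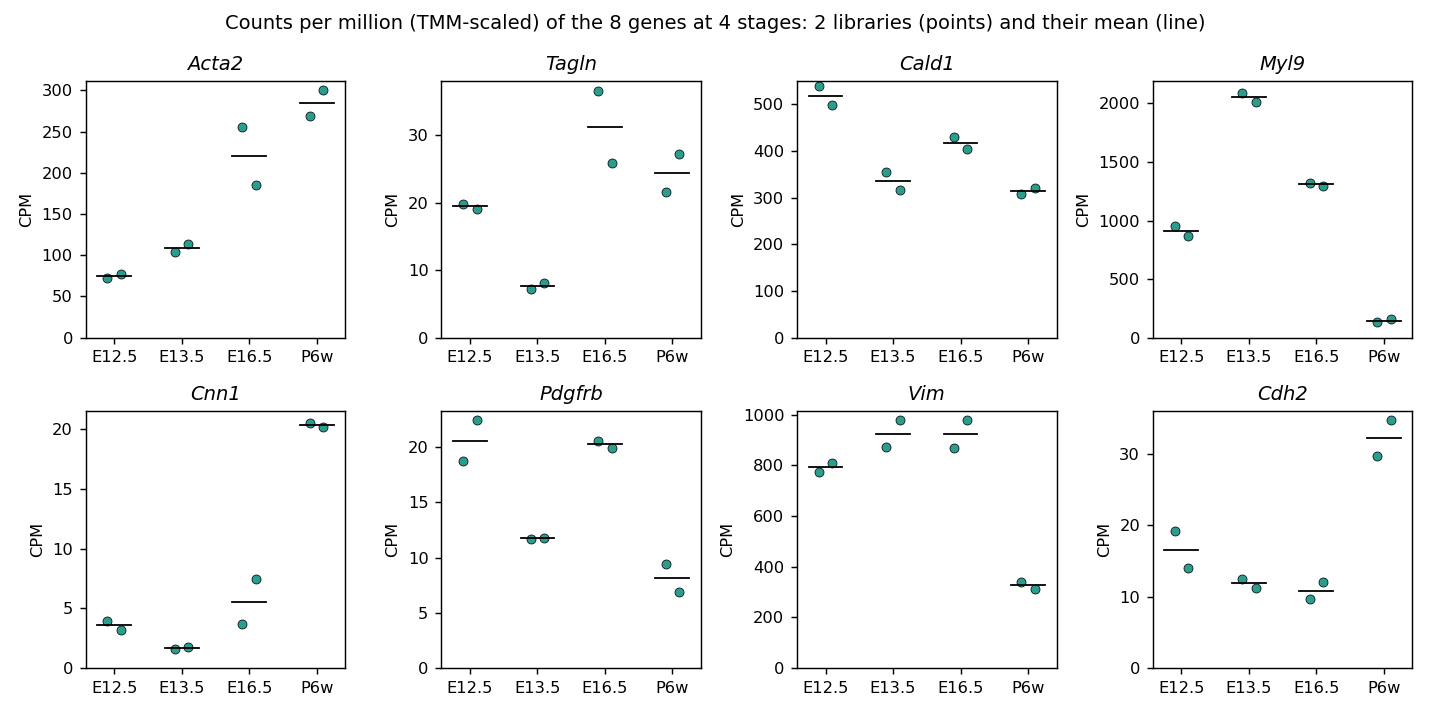
CPM of the 8 genes in each stage library (points, n = 2 per stage; vertical linear axis from 0), with a line at each stage mean. Acta2 is higher at each later stage, Myl9 falls to 135 and 157 CPM at P6w, and Tagln, Cnn1 and Pdgfrb dip at E13.5 relative to E12.5 and E16.5.

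The counts of the related lists stand beside the shares of all genes called, which were 45.9% (E13.5 against E12.5), 54.1% (E16.5 against E13.5), 52.9% (P6w against E12.5) and 56.1% (P6w against E16.5), and the contractile list lay near the share of all genes in the first 2 of these. Of the 14 other contractile genes, 2 were higher and 4 lower at E13.5 than at E12.5, 5 higher and 2 lower at E16.5 than at E13.5, and 3 higher and 6 lower at P6w than at E12.5. At P6w, Actg2 went from 3.25 to 32.7 CPM and Lmod1, which nucleates actin filaments in smooth muscle, from 1.28 to 8.12 CPM, while Myh11 went from 40.7 to 13.8 CPM and Des from 13.0 to 5.58 CPM, so the contractile genes did not move together there. Of 14 genes of serum response factor and transforming growth factor beta signalling, 10 were higher and 1 lower at E16.5 than at E13.5, with Srf, serum response factor itself, at 87.0, 31.6 and 129 CPM at E12.5, E13.5 and E16.5. Its partner Myocd, myocardin, went from 4.95 CPM at E12.5 to 20.5 CPM at P6w. Of 11 pericyte and platelet-derived growth factor genes, 7 were higher and 0 lower at E16.5 than at E13.5, and 1 was higher and 8 lower at P6w than at E16.5, with Pdgfra at 46.7 CPM at E12.5 and 3.61 CPM at P6w. Of 16 genes of mesenchymal transition and adherens junctions, 2 were higher and 10 lower at P6w than at E12.5, among them Cdh11 (49.9 to 2.84 CPM), so that Cdh11 and Cdh2 went opposite ways in the adult ovary.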

How the data were processed

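Bulk RNA-seq of mouse cells and a 10x Chromium 3' single-cell sample were used. Per the labels and methods, the authors aligned reads to mm10 with HISAT2 and counted genes with featureCounts (versions not given in the sources used here), and the single-cell reads were processed with Cell Ranger. The stage table deposited by the authors holds raw counts per gene, the FPKM table holds FPKM per gene made by the authors, and the single-cell table deposited by the authors holds UMI counts. A further table with 10 value columns was matched to no sample and not used. Labels put controls at 24 h and 48 h and were followed.

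The members and gene lists were chosen with earlier results of these data known. Stage counts were tested with edgeR 4.0.16 (filterByExpr, TMM, quasi-likelihood, 8 libraries in 1 model, adjusted p under 0.05). FPKM were tested with limma 3.58.1 (trend, log2(FPKM + 1), at least 1 FPKM in 3 libraries for days or 2 for treatments, adjusted p under 0.05 and at least 2-fold). Whole fragments were recovered from FPKM and exon length: 96.2% to 97.8% of the low values in a library came out whole within 0.05. On these fragments edgeR called 37 to 3972 genes per comparison. On simulated data with 200 genes changed by 1.5 on the log2 scale, edgeR recovered 196 for E13.5 against E12.5 (16 false among 15900 genes) and limma 200 both for V580_D6 against E12.5_GC (0 false among 11037) and for V580_48h against Con_48h (0 false among 10143). Single cells were clustered with scanpy 1.11.5 (2000 variable genes, 20 components, 20 neighbours, Leiden resolution 0.5); no doublet caller was run. Numbers of replicates did not pair libraries: deviations from group means correlated by -0.04 to 0.067 (stages), -0.43 to 0.386 (days) and -0.42 to 0.209 (treatments) between same-numbered libraries. Members are named throughout; of each list, up to 2 called genes that rose most and up to 2 that fell most were named, if their higher group averaged 5 CPM or FPKM or more, and the 3 most like genes by Pearson's r. Cdh1, Ddx3y, Pou5f1, Col1a1 and the levels of a named gene at other days or stages were added after values were seen. Alternatives were other scalings, filters, pseudocounts, tools, left-out libraries, a replicate block and a length term.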

Additional observations from a re-analysis of the deposited data

Results flagged for a closer look

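The effect of a treatment differed between 48 h and 24 h in 13 cases among the members, by an interaction term in the limma fit (Benjamini-Hochberg adjusted over all genes); each value is the log2 difference at 48 h minus that at 24 h, and a positive value means that the treated libraries lay higher relative to Con at 48 h than at 24 h. All 13 were positive and under 2-fold, beside 35.0% (AM580), 33.9% (V580) and 2.90% (Vc) of all genes past the adjusted p. For AM580 the values were 0.47 for Acta2 (adjusted p = 0.000241), 0.85 for Cdh2 (1.02e-05), 0.27 for Myl9 (0.0492), 0.68 for Pdgfrb (0.000406), 0.37 for Tagln (0.0472) and 0.66 for Vim (0.000291). For V580 they were 0.83 for Acta2 (1.17e-06), 0.81 for Cdh2 (1.8e-05), 0.51 for Myl9 (0.00138), 0.66 for Pdgfrb (0.000537), 0.60 for Tagln (0.00363) and 0.48 for Vim (0.00307). For Vc the value was 0.47 for Myl9 (0.0234). Acta2 is the clearest reversal: V580 lay 0.34 below Con at 24 h and 0.49 above it at 48 h. The Con libraries themselves fell over the same time in each of the 8 members, and the part of that fall in the interaction was not tested. On recovered fragments, the interactions of Pdgfrb (1.63 for AM580 and 1.59 for V580) and Cdh2 (1.12 and 1.08) passed both thresholds.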

How the results depend on the processing

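The replicate block gave the same count in 24 of 24 comparisons and the same call in 192 of 192 member results, so the pairing of equal numbers, which the data did not bear out, changed no other call. Over the members' fold changes, DESeq2 and RLE scaling kept the direction and the side of the threshold in 40 of 40 each. Without a fold threshold more members were called in each FPKM comparison. For V580 against Con they were 5 at 24 h and 4 at 48 h, beside 29.0% and 57.1% of all genes. For V580 against AM580 they were 3 at 24 h and 6 at 48 h, beside 14.8% and 19.2%. The AM580, V580 and Vc interactions of time gave 6, 6 and 1, beside 35.0%, 33.9% and 2.90%. V580_D8 against V580_D6 gave 8, beside 41.1%. Counts for the other comparisons are left out, since no share of all genes is given here under this rule. With a pseudocount of 0.1, and likewise on recovered fragments, 1 member was called for AM580 and for V580 at 48 h and 2 in each of their interactions, and on fragments 4 between V580_D8 and V580_D6. Quantile normalization left 1 between V580_D10 and V580_D8. At least 2-fold left 3 at E13.5 against E12.5, 1 at E16.5 against E12.5 and 3 at E16.5 against E13.5, and a fit of only the 2 stages left 3 at E16.5 against E12.5. Allowing 1 departure from the CArG box gave 2 members with a match in place of 1.

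Leaving out 1 library gave 4 to 6 members called for E13.5 against E12.5, 2 to 5 for E16.5 against E12.5, 5 to 6 for E16.5 against E13.5, 7 for P6w against E12.5 and 5 to 7 against E16.5, 6 to 7, 5, 4 and 5 for V580_D4 to V580_D10 against E12.5_GC, 1, 1 to 3 and 2 to 3 from day to day, 4 to 5 for Con_48h against Con_24h and 0 for each treatment. Calls lost at E13.5 against E12.5 were Acta2 (E12.5 replicate 1), Cnn1 (E12.5 replicate 1 or either E13.5) and Pdgfrb (E12.5 replicate 2). At E16.5 against E12.5 they were Cald1 (either E12.5), Tagln (either E12.5 or E16.5 replicate 1), Myl9 (E12.5 replicate 2) and Cdh2 (E12.5 or E16.5 replicate 1). Cald1 was lost at E16.5 against E13.5 (either E13.5). At P6w against E16.5 the losses were Acta2 (E16.5 replicate 2 or either P6w) and Cald1 (P6w replicate 1). Tagln was lost for Con_48h against Con_24h (Con_48h replicate 1). Myl9 was lost for V580_D8 against V580_D6 (V580_D6 replicate 2 or V580_D8 replicate 1). It was also lost for V580_D10 against V580_D8 (V580_D10 replicate 1 or 3, or V580_D8 replicate 2 or 3). Values that changed sign were all of uncalled differences: Cald1 -0.10 to 0.011 in AM580_24h, Myl9 -0.10 to 0.054 in AM580_48h, Pdgfrb -0.14 to 0.12 at E16.5 against E12.5, Cdh2 -0.31 to 0.025 and Vim -0.11 to 0.083 at E16.5 against E13.5, Pdgfrb -0.045 to 0.087 in V580_24h, Cnn1 -0.068 to 0.033 in V580_48h, Pdgfrb -0.015 to 0.16 between V580_D10 and V580_D8, Cnn1 -0.083 to 0.11, Pdgfrb -0.022 to 0.11 and Vim -0.0903 to 0.17 in the Vc interaction, Myl9 -0.10 to 0.15, Tagln -0.24 to 0.0047 and Vim -0.16 to 0.10 in Vc_24h, and Vim -0.079 to 0.10 in Vc_48h. Other reversals were Cald1 with the length term (0.065 for E13.5 against E12.5 and -0.33, itself called, for E16.5 against E13.5), Myl9 in AM580_48h (0.058 by quantile normalization and 0.00099 on fragments), Cnn1 in V580_48h (0.0097 on fragments) and Myl9 between V580_D6 and V580_D4 (0.049 by quantile normalization). The length term also ended the calls of Myl9 at E16.5 against E13.5 (-0.05) and of Cald1 at E16.5 against E12.5 and at P6w against E16.5. The causes were not tested.

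In single cells, the stricter filter gave 4.55 (Acta2) and 5.91 (Cald1) UMIs per 10000, and thinning gave 4.47 (Acta2), 6.30 (Tagln), 5.58 (Cald1), 1.91 (Myl9), 0.514 (Cnn1), 0.0504 (Pdgfrb), 2.38 (Vim) and 0.518 (Cdh2). The highest cluster level of Acta2 was 19.4 with members in the clustering, 17.4 with the stricter filter and 15.6 thinned.

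Over all genes, limma called fewer than edgeR on recovered fragments: for V580_D4, D6, D8 and D10 against E12.5_GC 2354, 1747, 1493 and 1887 against 3972, 3177, 2748 and 3354, from day to day 585, 293 and 149 against 1505, 919 and 598, for Con_48h against Con_24h 822 against 2066, for AM580, V580 and Vc at 24 h 43, 74 and 9 against 182, 368 and 98, at 48 h 344, 339 and 5 against 1048, 1062 and 83, for V580 against AM580 7 and 28 against 113 and 162, and for the interactions 202, 195 and 4 against 611, 648 and 37. The split of higher and lower calls moved by more than 10 points, for example from 112 and 37 to 296 and 302 between V580_D10 and V580_D8 and from 268 and 554 to 952 and 1114 in Con. At least 2-fold left 2785 of 7530 (E13.5 against E12.5), 2752 of 6160 and 4285 of 8865 (E16.5), and 4924 of 8673 and 5339 of 9206 (P6w). Groups of 2 or 3 libraries, Tagln's shared exons, the Ddx3y counts of E12.5 and a single 10x sample limit these values.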

Other observations

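Genes around the members that the comparisons above leave out are given here as values. Among the pericyte and platelet-derived growth factor genes, the ligand Pdgfc was higher than in E12.5_GC (13.8 FPKM) at day 6 (49.3 FPKM), day 8 (44.8) and day 10 (43.3), at which days Mcam, an adhesion protein of pericytes and endothelium, was also higher (44.3, 36.7 and 32.6 FPKM against 12.4), and all 6 differences were called by limma. Mcam was called lower with V580 at 48 h (16.8 to 7.003 FPKM). Notch3, a receptor of mural cells, went up between the Con libraries of 24 h and 48 h (5.97 to 24.2 FPKM), the opposite direction to each member. The epithelial adhesion gene Epcam was called higher than in E12.5_GC (5.35 FPKM) on each day (156, 84.9, 58.6 and 45.0 FPKM). Fibronectin (Fn1), which also coated the culture plates, went from 76.5 to 179 FPKM between days 8 and 10.

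In the stage libraries Tgfb2 went from 33.3 CPM (E13.5) to 97.9 CPM (E16.5) and 10.6 CPM (P6w), Epcam rose from 3.24 CPM at E12.5 to 23.3 at E16.5, and the ligand Pdgfb rose from 6.40 CPM at E12.5 to 20.3 at P6w, where its receptor gene Pdgfrb was lowest. Macrophage markers summed to 7.22 to 11.2 FPKM in E12.5_GC and 1.32 to 2.08 at day 10, germ cell markers to 3.04 to 6.02 and 15.2 to 17.0 FPKM, and extraembryonic endoderm markers to 20.8 to 27.4 and 40.8 to 45.0 FPKM. Neuron markers summed to 2.27 to 8.47 FPKM in E12.5_GC and 7.65 to 8.29 FPKM at day 10.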
